A study of Mus musculus with 10 samples.

Results

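Collagens are a family of extracellular matrix proteins whose polypeptides, the α chains, wind around each other into a triple helix. The genes described here are all those with a symbol of the form Col, a type number, a and a chain number, which gave 42 of the 19505 genes measured in total retinal RNA of 10 mice. They were grouped by the kind of structure that their proteins build, namely 11 fibrillar chains, 6 type IV chains, 6 type VI chains, 8 FACIT chains (fibril-associated collagens with interrupted triple helices), 2 multiplexins, 4 transmembrane collagens, 3 short-chain network collagens and 2 others. *Col7a1* and *Col12a1* had no transcript cluster listed under their symbols and were not analysed here.

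There were 5 groups of 2 animals with 1 array per animal. CLN3-deficient mice carry the *Cln3* Δex7/8 allele, a knock-in that lacks exons 7 and 8 of *Cln3* and models juvenile neuronal ceroid lipofuscinosis, and were studied after light with minocycline (45 mg/kg), after light with the same volume of NaCl solution as vehicle, and without light. Wild-type mice were studied after light and without light. A light-sensitive *Rpe65* variant is described for both genotypes, and the methods name it as the leucine variant for the CLN3-deficient mice. Male and female animals of 8 to 10 weeks were used. Under strain, the labels have Balb/c for wild-type animals and Cln3 delta ex7/8 for the others, whereas the methods speak of littermates. Minocycline, a tetracycline antibiotic, and vehicle were given into the peritoneum daily from the day before light, so the light effect in CLN3-deficient retinas also holds the injections. Exposed wild-type mice are labelled as high light, which was 15000 lux for 60 min. In both genotypes exposure followed 16 h of dark adaptation. None is stated for unexposed mice, so the light effects may also hold the dark adaptation. The labels of the exposed CLN3-deficient mice give no dose, and the protocol states that the minocycline study used the low dose of 10000 lux for 30 min. Genotype and light dose therefore cannot be told apart after light, and no source used here gives the day on which retinas were taken. Nothing states whether the retinas of a group came from separate litters, and p-values measure only the spread between these animals.

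The collagens of the retina lie mainly in its basement membranes. Type IV chains form the network of the inner limiting membrane, of vessel walls and of Bruch's membrane beneath the pigment epithelium, and mutations of *COL4A3*, *COL4A4* or *COL4A5* cause Alport syndrome in people, a disease of kidney, ear and eye. Fibrillar collagens build the sclera and corneal stroma, and types II, IX and XI form the fibrils of the vitreous, to which the ciliary body contributes. Type XVIII, from which endostatin is cut, sits in ocular basement membranes and its loss causes Knobloch syndrome with vitreoretinal degeneration.

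The genes of type IV chains lie in head-to-head pairs, and RefSeq (GRCm38.p6) puts the annotated span of *Col4a4* on chromosome 1 over the first 114 bases of *Col4a3*. The spans of *Col4a1* and *Col4a2* on chromosome 8 overlap by 85 bases, and 1274 bases separate *Col4a6* from *Col4a5* on chromosome X. Promoter windows of 250 bases before a start were at hand for 34 of the 42 collagens (37 windows), and for 9 of the 12 that passed a test below. Both strands were searched for the short words that follow, which do not overlap each other in the windows printed. The word TATAAA, of the box that binds the general transcription machinery, stood in 5 of the 37 collagen windows and in 12.4% of all 32851 windows of this length. The word CCAAT, bound by the factor NF-Y, stood in 12 of the 37 and in 33.8% of all windows. The GC box GGGCGG, bound by factors of the Sp family, stood in 21 of the 37 and in 32.7% of all windows. A core bound by the photoreceptor factor CRX, spelled TAATCC, stood in 0 of the 37 and in 6.25% of all windows. The sequences below are shown because they precede members that the results turn on, and because *Col18a1* has alternative starts that differ in these words. Capitals mark matches to the NF-Y word or the GC box or to their reverse complements, the order is 5′ to 3′ on the strand of the gene, and the first is the plus strand between the *Col4a4* start of the promoter table, which lies at 82586849 inside the annotated span of that gene, and the *Col4a3* start at 82586921. It held 0 matches.
Col4a4-Col4a3, between the inner Col4a4 start and the Col4a3 start, chr1:82586850-82586920, plus strand: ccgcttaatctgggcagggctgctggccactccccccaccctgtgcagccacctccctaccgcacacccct
Col4a5, chrX:141475169-141475418, plus strand: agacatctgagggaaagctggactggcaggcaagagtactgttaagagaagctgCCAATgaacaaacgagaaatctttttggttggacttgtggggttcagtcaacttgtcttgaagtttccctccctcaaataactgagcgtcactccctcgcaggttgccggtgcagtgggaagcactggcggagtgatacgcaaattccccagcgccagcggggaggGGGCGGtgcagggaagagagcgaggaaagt
Col24a1, chr3:145292222-145292471, plus strand: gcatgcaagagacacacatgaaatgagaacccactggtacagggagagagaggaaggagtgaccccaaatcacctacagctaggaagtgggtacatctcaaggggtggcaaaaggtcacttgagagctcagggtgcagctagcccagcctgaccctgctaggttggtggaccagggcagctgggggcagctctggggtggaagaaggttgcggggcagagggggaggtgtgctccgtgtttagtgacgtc
Col18a1, upstream start, chr10:77166531-77166780, minus strand: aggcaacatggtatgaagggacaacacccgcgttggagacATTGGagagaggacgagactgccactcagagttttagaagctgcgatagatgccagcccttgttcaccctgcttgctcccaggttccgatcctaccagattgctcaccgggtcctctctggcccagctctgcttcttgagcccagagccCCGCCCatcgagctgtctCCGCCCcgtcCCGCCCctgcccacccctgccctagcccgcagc
Col18a1, downstream start, chr10:77113706-77113955, minus strand: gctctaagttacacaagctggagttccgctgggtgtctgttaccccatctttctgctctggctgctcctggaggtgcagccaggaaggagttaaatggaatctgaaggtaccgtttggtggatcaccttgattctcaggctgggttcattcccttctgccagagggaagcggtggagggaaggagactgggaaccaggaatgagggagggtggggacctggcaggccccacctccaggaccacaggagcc

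Some arrays carried signal of tissue around the neural retina, and the sexes were not balanced over the groups. Rod markers fell in part after light, with 2 of 5 measured called lower in CLN3-deficient retinas, beside 11% of all genes. In wild-type retinas 3 of 5 were called lower, beside 15.6% of all genes. The mean of these markers lay between 16.4 and 17.6 on the 10 arrays. The mean of 6 skeletal muscle genes was 9.93 on the first array of unexposed CLN3-deficient retinas and lay between 5.57 and 6.75 on the other 9. The mean of 5 pigment cell genes, which the pigment epithelium shares with choroidal melanocytes, was 11.25 on the second minocycline array, against 10.32 and 8.30 in exposed and 6.27 and 7.28 in unexposed wild-type retinas. The mean of 3 Y-linked genes was 10.75 to 11.52 in both vehicle, both unexposed wild-type and 1 minocycline retina, and 3.34 to 3.69 in the other 5. Light thus went with the Y-linked genes in CLN3-deficient retinas and against them in wild-type retinas. The separation was complete in both light comparisons and in both comparisons of the genotypes. Sex therefore cannot be told apart from light within a genotype, from genotype, or from the difference of the light effects.

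Type IV collagens included the only member that was lower after light in both genotypes, *Col4a3*, which encodes the α chain that joins those of *Col4a4* and *Col4a5* in 1 kind of trimer. Its log2 expression, 1 value per array, was 8.05 and 10.30 with light and minocycline, 8.57 and 8.06 with light and vehicle and 11.27 and 11.59 without light in CLN3-deficient retinas. In wild-type retinas it was 8.34 and 8.94 after light and 10.19 and 11.03 without light. No exposed retina of vehicle-treated or wild-type animals reached the range of the unexposed ones. The first minocycline retina, at 8.05, was the lowest of all. The second, at 10.30, lay above the first unexposed wild-type retina (10.19) and below the other unexposed ones. The light effect was −3.12 ± 0.56 on the log2 scale in CLN3-deficient retinas, which is 8.66-fold lower (limma, SE, adjusted p = 0.0047). It was −1.97 ± 0.56 in wild-type retinas, which is 3.92-fold lower (adjusted p = 0.025). The difference of the light effects between the 2 genotypes did not pass (limma, −1.15 ± 0.79, adjusted p = 0.635). The wild-type call was lost without the first exposed array (−1.67) or the second unexposed array (−1.55). With a covariate for Y-linked transcripts the effect in CLN3-deficient retinas was −0.86 and no longer passed. In wild-type retinas it was then −4.22 and passed, so the order of the genotypes turned round. That covariate rests on the 2 minocycline arrays, which also differ in pigment cell signal.

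*Col4a3* was also the only collagen past the threshold of the methods, a log2 change of 2 or more either way and an unadjusted p under 0.05, in either light comparison. In CLN3-deficient retinas 0.2% of all genes passed it as lower. Its neighbour *Col4a4* was measured at 6.65 and 8.55 with light and minocycline, 7.46 and 7.39 with light and vehicle and 7.73 and 8.21 without light. Wild-type retinas gave 7.20 and 7.44 after light and 7.46 and 7.12 without light. *Col4a4* did not pass in either genotype (−0.55 ± 0.46 in CLN3-deficient and 0.03 ± 0.46 in wild-type retinas). On the minocycline arrays both genes of the pair were low on the first and high on the second, the array with the pigment cell signal, and the part of that signal in these values was not tested.

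*Col4a5*, the partner of *Col4a3* in the trimer and an X-linked gene, was 5.36 and 5.59 with minocycline, 5.10 and 5.75 with vehicle and 4.89 and 4.89 without light in CLN3-deficient retinas, where the light effect of 0.54 ± 0.24 did not pass (adjusted p = 0.145). In wild-type retinas it rose, with 5.97 and 6.03 after light and 4.85 and 4.62 without light (1.26 ± 0.24, adjusted p = 0.00411). *Col4a2*, which with *Col4a1* forms the trimer present in nearly all basement membranes, was 6.26 and 6.04 with minocycline, 6.15 and 5.78 with vehicle and 5.50 and 5.87 without light in CLN3-deficient retinas (0.28 ± 0.23, adjusted p = 0.446). It rose in wild-type retinas too, at 6.28 and 6.62 after light and 5.64 and 5.73 without light (0.77 ± 0.23, adjusted p = 0.0304). The *Col4a2* call in wild-type retinas was lost on leaving out any 1 of its 4 arrays.

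*Col4a1* gave another order, and did not pass in either genotype. It was 6.27 and 6.35 with minocycline, 6.61 and 6.53 with vehicle and 6.08 and 6.01 without light in CLN3-deficient retinas (0.52 ± 0.20, adjusted p = 0.0957). Wild-type retinas had 5.85 and 6.17 after light and 6.02 and 6.26 without light, which overlapped. *Col4a6*, a chain of smooth muscle and epithelial basement membranes, was 5.01 and 5.27, 5.28 and 5.34, and 5.21 and 5.0 in the same CLN3-deficient groups. It was 6.07 and 4.89 after light and 4.97 and 4.85 without light in wild-type retinas, so that a single exposed array stood apart.

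**Figure D1:**
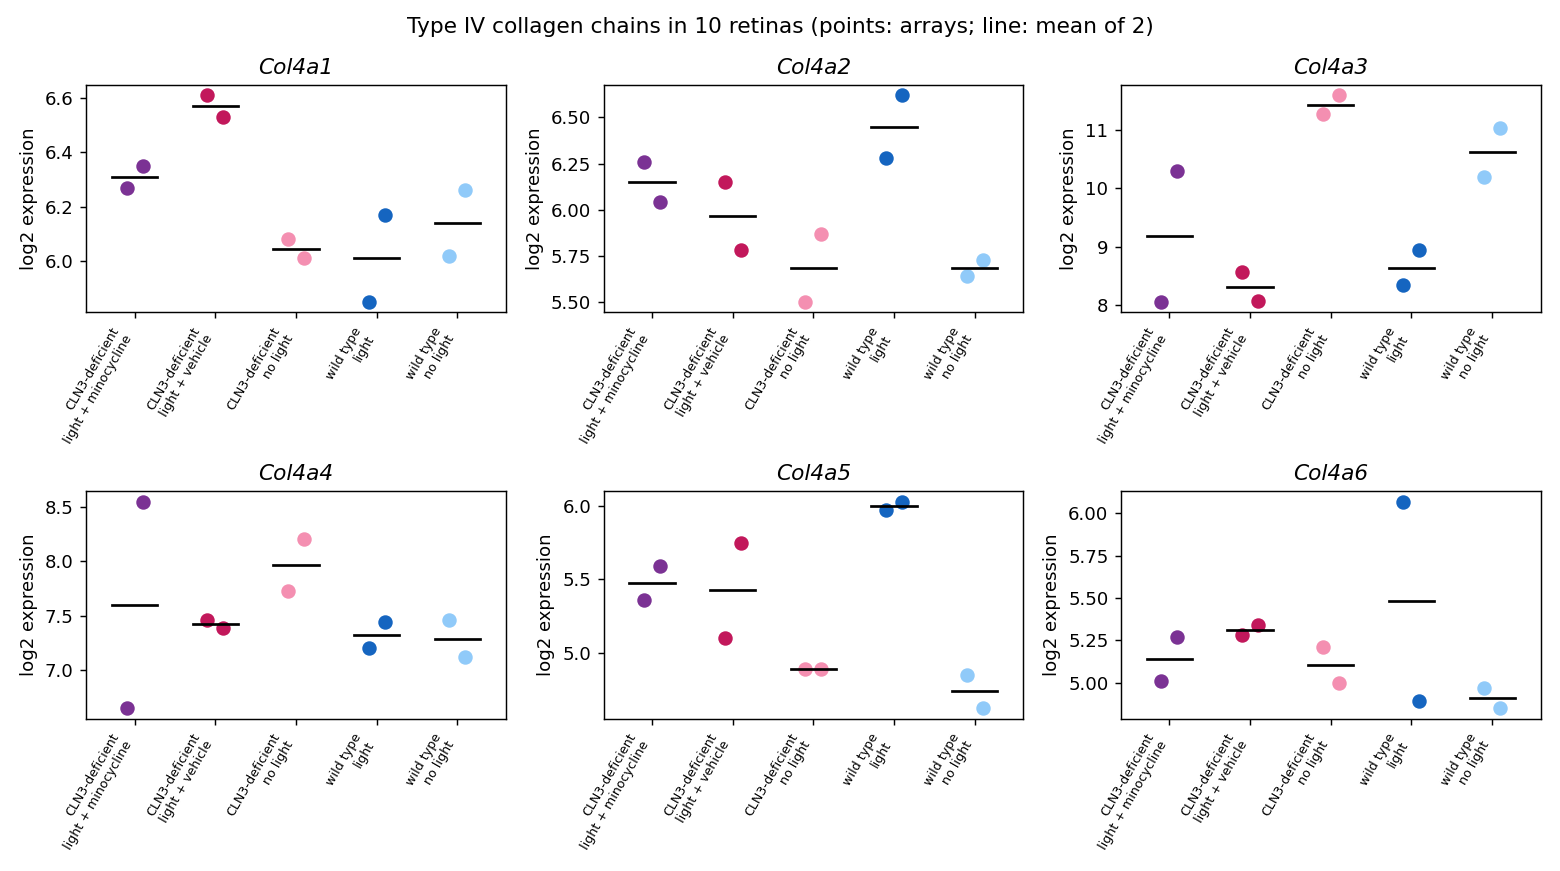
Log2 expression of the 6 type IV collagen chains on each array (points, 2 per group; lines are group means), with a scale of its own in each panel that does not start at 0. *Col4a3* lies at 8.06 to 8.94 in vehicle-treated exposed and wild-type exposed retinas and at 10.19 to 11.59 in unexposed ones, while the 2 minocycline arrays lie at 8.05 and 10.30.

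Over the family, 2 collagens were higher and 1 was lower after light in CLN3-deficient retinas, against 6.57% of all genes called higher and 11% called lower there. In wild-type retinas 10 were higher and 1 was lower, against 10.5% and 15.6% of all genes. Together 12 collagens passed in either genotype and 30 in neither, and the 2 that passed in both, *Col4a3* and *Col9a3*, moved the same way. The median light effect over the 42 members was 0.26 in CLN3-deficient and 0.51 in wild-type retinas on the log2 scale, beside medians of 0.005 and 0.025 over all genes. It was positive for 29 members in CLN3-deficient and for 37 in wild-type retinas. At an unadjusted p under 0.05, CLN3-deficient retinas had 7 higher and 2 lower members, beside 2522 higher and 3638 lower of all 19505 genes. Wild-type retinas had 20 higher and 1 lower member, beside 3492 higher and 4245 lower of all genes. The mean over the 42 members was 6.10 and 6.31 with minocycline, 6.14 and 6.19 with vehicle and 6.0 and 6.02 without light in CLN3-deficient retinas. It was 6.41 and 6.46 after light and 5.91 and 5.97 without light in wild-type retinas, so that the exposed arrays lay above the unexposed ones in both genotypes.

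Dim genes had a positive median light effect in both genotypes, and 22 collagens had a mean under 6, as had 7414 of all genes. Those genes had a median light effect of 0.13 in CLN3-deficient and 0.26 in wild-type retinas, where 12% of them were called higher. The 22 dim collagens had medians of 0.22 and 0.58, with 0 and 5 called higher. The 20 brighter collagens had medians of 0.31 in CLN3-deficient and 0.44 in wild-type retinas, where the medians over all 12091 genes with a mean of 6 or more were −0.16 and −0.24. How much of the members' shift is shared with other dim genes was not tested.

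**Figure D2:**
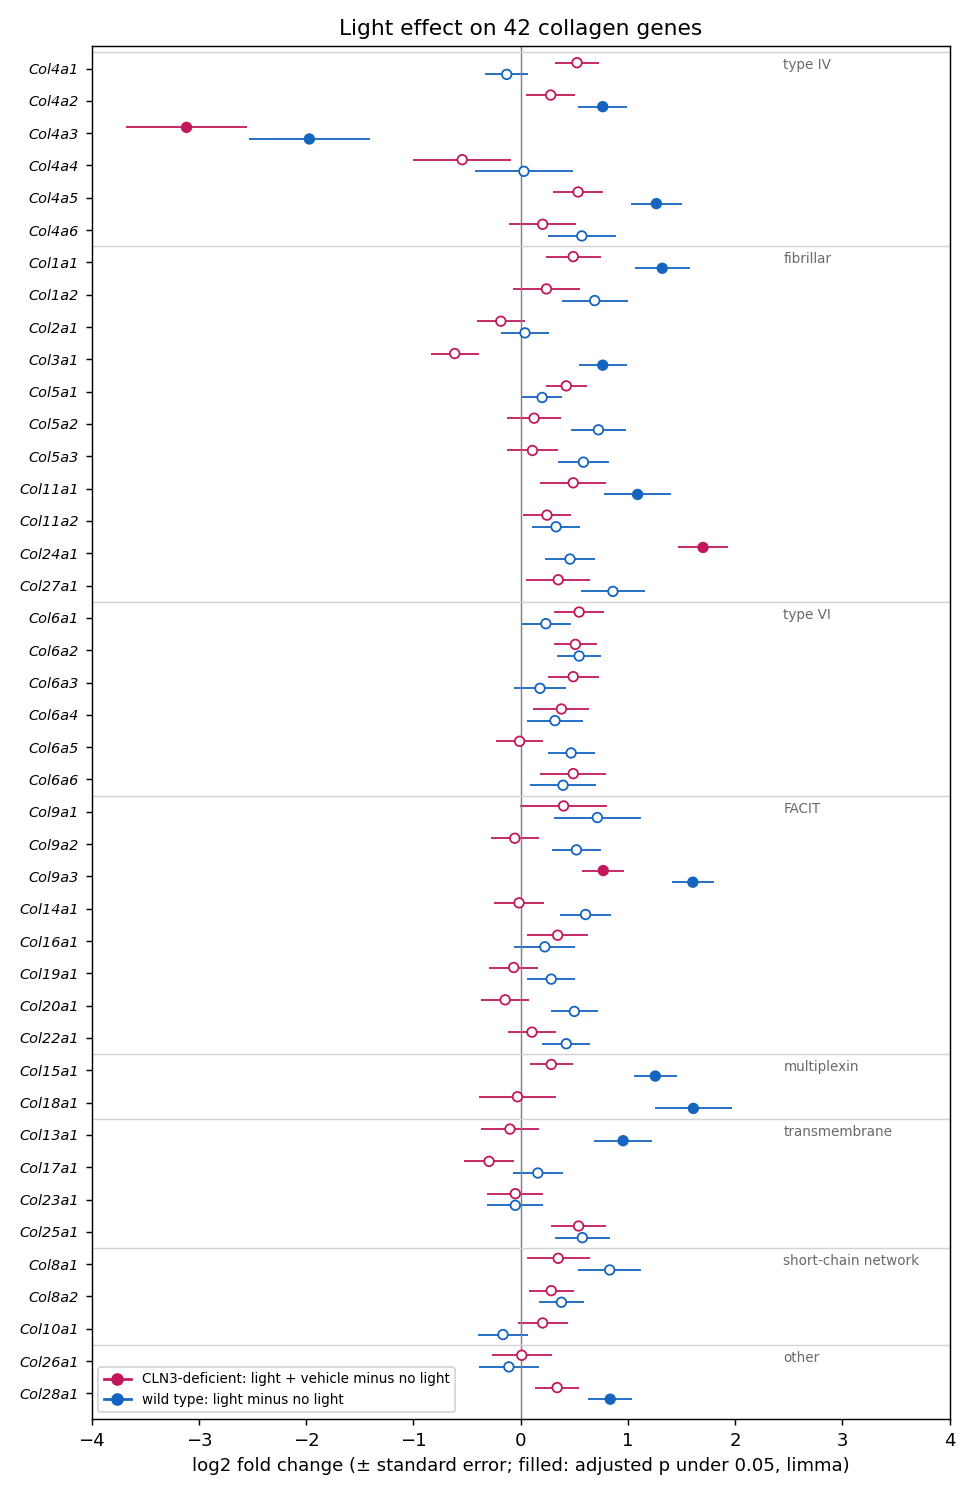
Light effect on the 42 collagen genes by class, as log2 fold change with its standard error, in CLN3-deficient retinas (light with vehicle minus no light) and wild-type retinas (light minus no light). Filled points passed limma at an adjusted p under 0.05, which were 3 in CLN3-deficient and 11 in wild-type retinas.

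Fibrillar collagens, the chains of the cross-striated fibrils, had a positive light effect in 9 of 11 members in CLN3-deficient retinas (median 0.24) and in 11 of 11 in wild-type retinas (median 0.69). Of these, 1 passed as higher in CLN3-deficient retinas and 3 in wild-type retinas. *Col24a1*, a minor fibrillar chain known from developing bone and cornea, was 8.72 and 8.54 with light and minocycline, 8.19 and 8.28 with light and vehicle and 6.82 and 6.25 without light in CLN3-deficient retinas. Wild-type retinas gave 7.60 and 7.73 after light and 7.01 and 7.40 without light. All exposed arrays lay above the unexposed ones of their genotype. The light effect was 1.70 ± 0.24 in CLN3-deficient retinas, or 3.25-fold (adjusted p = 0.00196), and 0.46 ± 0.24 in wild-type retinas (adjusted p = 0.17). The test of the difference itself gave 1.24 ± 0.33 and an unadjusted p of 0.00325, and did not pass after adjustment (limma, adjusted p = 0.224). The CLN3-deficient call held without any 1 of the 4 arrays (1.42 to 1.98).

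*Col1a1*, the main chain of type I collagen in sclera, skin and bone, was 6.78 and 6.49 with minocycline, 6.36 and 7.16 with vehicle and 6.32 and 6.22 without light in CLN3-deficient retinas, where 1 vehicle array stood alone (0.49 ± 0.26, adjusted p = 0.221). It was 7.12 and 7.32 after light and 5.89 and 5.91 without light in wild-type retinas (1.32 ± 0.26, adjusted p = 0.00498). All 6 exposed arrays lay above the 4 unexposed ones. *Col11a1*, a chain that sets the width of thin fibrils in cartilage and vitreous, was 4.88 and 5.34 with minocycline, 5.23 and 5.40 with vehicle and 4.70 and 4.95 without light in CLN3-deficient retinas (0.49 ± 0.31, adjusted p = 0.312). In wild-type retinas it was 5.50 and 6.56 after light and 4.87 and 5.01 without light (1.09 ± 0.31, adjusted p = 0.0247). That call was lost without the second exposed array (0.56) and without either unexposed array (1.02 and 1.16).

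*Col3a1*, a chain of vessels and loose connective tissue, had light effects of opposite sign in the genotypes, near the low end of the scale. It was 3.94 and 4.12 with minocycline, 3.59 and 3.64 with vehicle and 4.17 and 4.29 without light in CLN3-deficient retinas. In wild-type retinas it was 4.49 and 4.01 after light and 3.66 and 3.31 without light. Light gave −0.61 ± 0.22 in CLN3-deficient retinas, which did not pass (adjusted p = 0.0822), and 0.76 ± 0.22 in wild-type retinas, which did (adjusted p = 0.0283). *Col11a2*, the fibrillar member with the highest signal, was 8.18 and 7.80, 8.08 and 8.03, and 7.66 and 7.96 in the CLN3-deficient groups in the same order. It was 7.96 and 8.25 after light and 7.88 and 7.67 without light in wild-type retinas, and passed in neither (0.24 and 0.33). The 8 fibrillar members that did not pass in wild-type retinas ranged between 0.04 for *Col2a1* and 0.86 for *Col27a1*.

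FACIT collagens, which coat fibrils, held the member with the smallest p of the family in wild-type retinas, *Col9a3*. This chain of type IX collagen, a component of vitreous and cartilage, was 9.08 and 9.24 with minocycline, 9.01 and 8.80 with vehicle and 8.10 and 8.17 without light in CLN3-deficient retinas. Wild-type retinas had 9.65 and 9.42 after light and 7.91 and 7.95 without light. The 6 exposed arrays all lay above the 4 unexposed ones. *Col9a3* rose by 0.77 ± 0.20 in CLN3-deficient retinas, or 1.71-fold (adjusted p = 0.0208), and by 1.60 ± 0.20 in wild-type retinas, or 3.04-fold (adjusted p = 0.000857). Their difference of −0.83 ± 0.28 did not pass (limma, adjusted p = 0.307). The call in CLN3-deficient retinas was lost on leaving out any 1 of its 4 arrays (0.67 to 0.88), and that in wild-type retinas never was (1.49 to 1.72). The other chains of type IX, *Col9a1* and *Col9a2*, did not pass (0.40 and −0.06 in CLN3-deficient, 0.71 and 0.52 in wild-type retinas). Of the FACIT members, 4 of 8 had a positive light effect in CLN3-deficient retinas (median 0.04) and 8 of 8 in wild-type retinas (median 0.51).

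Both multiplexins, basement membrane collagens with interrupted helices that carry heparan or chondroitin sulfate, rose in wild-type retinas and did not pass in CLN3-deficient ones. *Col15a1*, of vessel and muscle basement membranes, was 4.59 and 4.68 with minocycline, 4.71 and 4.68 with vehicle and 4.38 and 4.44 without light in CLN3-deficient retinas (0.28 ± 0.20, adjusted p = 0.367). Wild-type retinas gave 5.61 and 5.22 after light and 4.14 and 4.18 without light (1.25 ± 0.20, adjusted p = 0.00218). Exposed wild-type arrays were thus above all the others. *Col18a1* was 7.98 and 8.73 with minocycline, 7.87 and 7.40 with vehicle and 7.75 and 7.58 without light in CLN3-deficient retinas (−0.03 ± 0.36, adjusted p = 0.967). It was 9.71 and 8.70 after light and 7.31 and 7.88 without light in wild-type retinas (1.61 ± 0.36, or 3.05-fold, adjusted p = 0.00826). The differences between the genotypes did not pass (limma, −0.97, adjusted p = 0.256 for *Col15a1*, and −1.64, adjusted p = 0.271 for *Col18a1*). With the covariate for Y-linked transcripts these differences were −0.79 for *Col15a1* and −0.14 for *Col18a1*. The call of *Col18a1* was lost without the first exposed (1.10) or the first unexposed array (1.32). The printed windows of its upstream and downstream starts cannot be tied to the array, which gives 1 value for the gene.

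**Figure D3:**
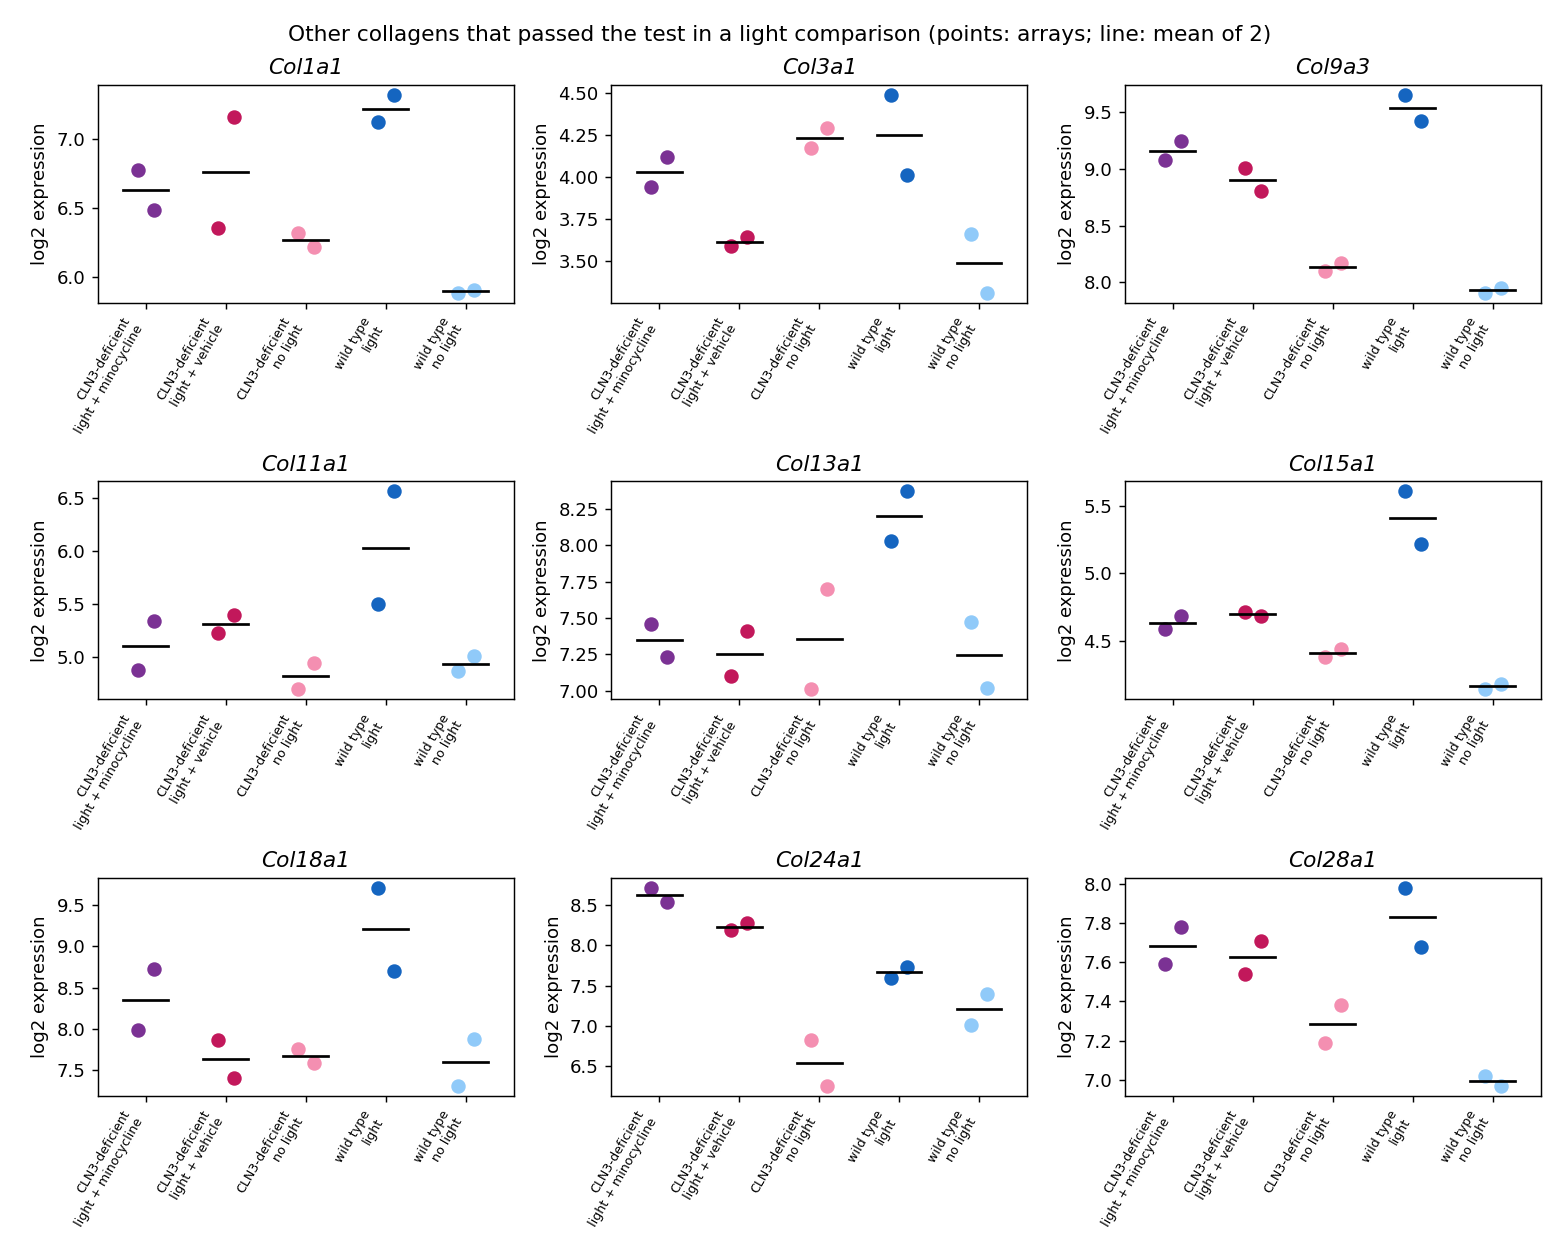
Log2 expression on each array (points, 2 per group; lines are group means) of the 9 collagens outside type IV that passed in a light comparison, with a scale of its own in each panel that does not start at 0. *Col24a1* is highest in exposed CLN3-deficient retinas, whereas all the others have their highest group mean in exposed wild-type retinas. For *Col3a1* that mean is 4.25, against 4.23 in unexposed CLN3-deficient retinas.

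Of the transmembrane collagens, which span the plasma membrane and can be shed, *Col13a1*, known from the neuromuscular junction, passed in wild-type retinas. It was 7.46 and 7.23 with minocycline, 7.10 and 7.41 with vehicle and 7.01 and 7.70 without light in CLN3-deficient retinas (−0.10 ± 0.27). Wild-type retinas had 8.03 and 8.37 after light and 7.47 and 7.02 without light (0.96 ± 0.27, adjusted p = 0.0249). *Col23a1*, the member of this class with the highest signal, was 9.70 and 9.57, 9.54 and 9.36, and 9.52 and 9.48 in the CLN3-deficient groups in the same order, and 9.32 and 9.95 after light and 9.38 and 9.99 without light in wild-type retinas. Its light effect was −0.05 in both genotypes. *Col28a1*, a collagen of peripheral nerve basement membranes, was 7.59 and 7.78, 7.54 and 7.71, and 7.19 and 7.38 in the CLN3-deficient groups, where the exposed arrays lay above the unexposed ones without passing (0.34 ± 0.20, adjusted p = 0.283). It rose in wild-type retinas, with 7.98 and 7.68 after light and 7.02 and 6.97 without light (0.83 ± 0.20, adjusted p = 0.0126).

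Type VI collagens, which form beaded filaments around cells, had 0 of 6 members past the test in either genotype (limma, 2 higher in CLN3-deficient and 1 in wild-type retinas at an unadjusted p under 0.05). The light effect was positive for 5 of 6 in CLN3-deficient retinas (−0.01 to 0.55) and for 6 of 6 in wild-type retinas (0.18 to 0.55). *Col6a1* was 8.19 and 8.39 with minocycline, 8.06 and 7.80 with vehicle and 7.52 and 7.25 without light in CLN3-deficient retinas, and 8.04 and 8.23 after light and 7.64 and 8.16 without light in wild-type retinas. The short-chain network collagens, of endothelial membranes and growth cartilage, had 0 of 3 that passed (limma, 0 and 1 at an unadjusted p under 0.05). *Col8a2*, of Descemet's membrane in the cornea, was 8.64 and 8.99, 8.85 and 8.86, and 8.49 and 8.65 in the CLN3-deficient groups in the same order. In wild-type retinas it was 8.86 and 8.94 after light and 8.69 and 8.35 without light.

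**Figure D4:**
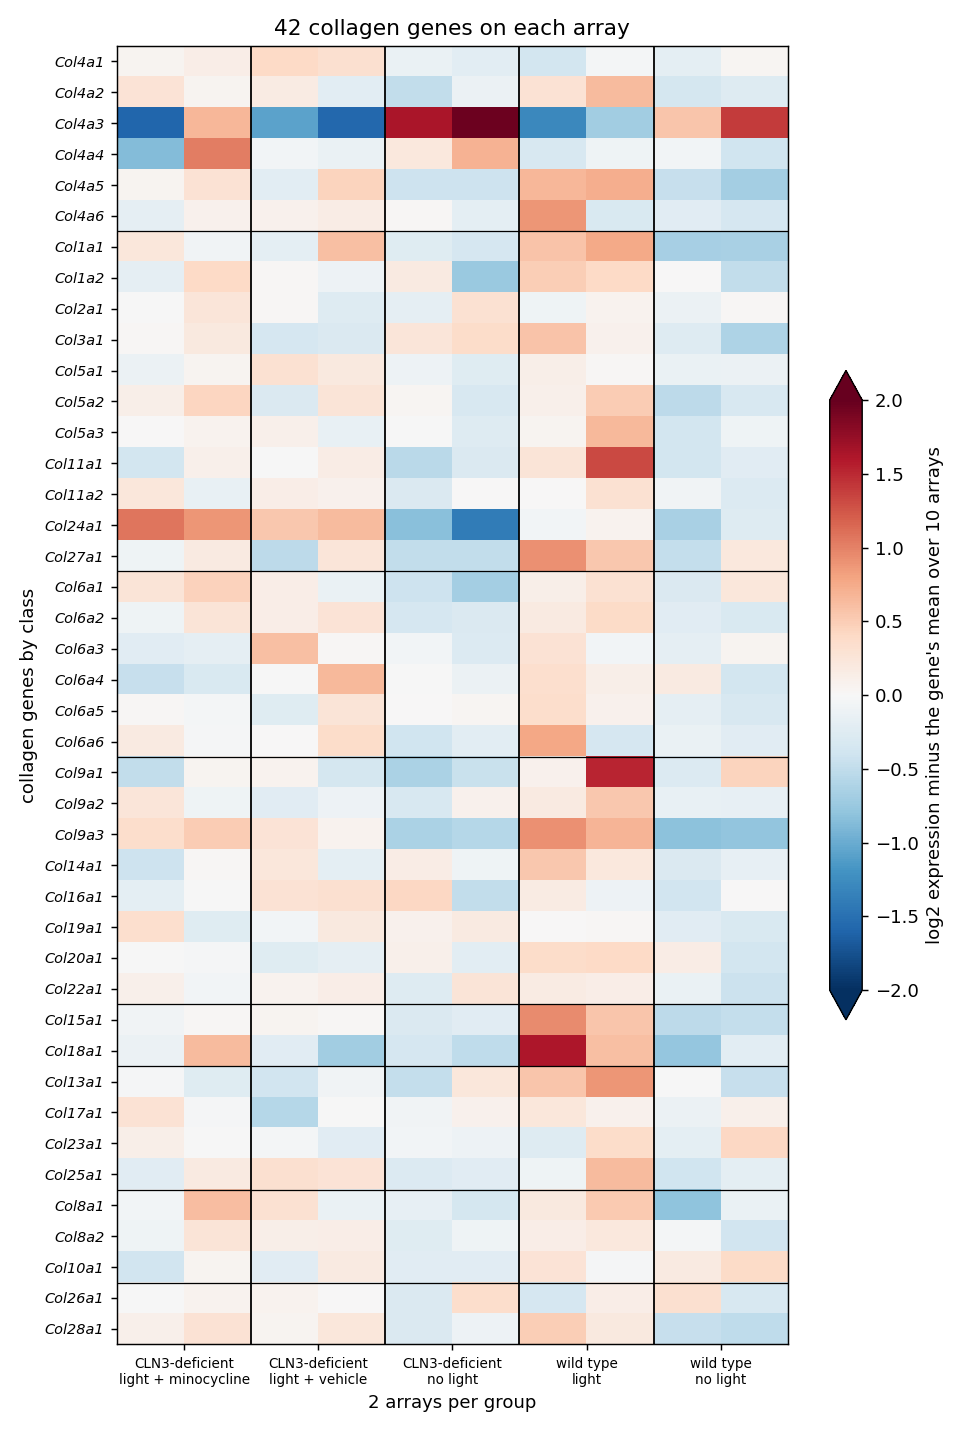
Log2 expression of each of the 42 collagen genes on each of the 10 arrays minus the gene's mean over all arrays, by class in the order type IV, fibrillar, type VI, FACIT, multiplexin, transmembrane, short-chain network and other; colours stop at 2 either way. *Col4a3* runs between 8.05 and 11.59 over the arrays, and the mean of all 42 rows is highest on the exposed wild-type arrays (6.41 and 6.46).

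Between the genotypes and between treatments no collagen passed. The Y-linked genes separated the genotypes completely both without light and after light with vehicle, so genotype and sex cannot be told apart there. The difference of the light effects between genotypes called 0 of 42 members higher and 0 lower, as it did for 0% of all genes higher and 0% lower. At an unadjusted p under 0.05 it gave 2 higher and 6 lower members, beside 1203 higher and 967 lower of all 19505 genes. The members were *Col4a1* and *Col24a1* on the higher side, and *Col1a1*, *Col3a1*, *Col9a3*, *Col13a1*, *Col15a1* and *Col18a1* on the lower side. Without light, 0 members differed between CLN3-deficient and wild-type retinas in either direction, where 0.0308% of all genes were called higher and 0.0154% lower. At an unadjusted p under 0.05 (limma) 1 member was higher and 3 were lower, beside 409 higher and 440 lower of all 19505 genes. After light, 0 members passed, where 0.687% of all genes were called higher and 0.113% lower. At an unadjusted p under 0.05 (limma) 2 members were higher and 11 lower, beside 1493 higher and 1493 lower of all 19505 genes. The 11 lower members included *Col18a1* with −1.57 ± 0.36 (limma, adjusted p = 0.0734).

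Minocycline against vehicle called 0 collagens higher and 0 lower, beside 0% of all genes higher and 0.0154% lower. At an unadjusted p under 0.05 (limma) 0 collagens were higher and 2 lower, beside 543 higher and 734 lower of all 19505 genes. The median over the family was 0.02, with 21 members positive. *Col4a3* had the highest value, 0.86 ± 0.56 (adjusted p = 0.877), and passed as higher only when the first minocycline array was left out (1.98 ± 0.39, adjusted p = 0.0388). That value sets a lone array, the one with the pigment cell signal, against vehicle and takes its spread from the other groups. Without the second minocycline array the value turned to −0.27 ± 0.39 (adjusted p = 0.996). *Col6a4*, a type VI chain, had the lowest, −0.70 ± 0.26 (adjusted p = 0.672).

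Enzymes that modify and fold collagen chains showed mixed directions, with 17 of 19 listed genes measured. Of these 3 passed as higher and 1 as lower in CLN3-deficient retinas, where 6.57% of all genes were higher and 11% lower. In wild-type retinas 2 were higher and 2 lower, where 10.5% of all genes were higher and 15.6% lower, and the same percentages apply to the lists that follow. *P3h3*, a prolyl 3-hydroxylase family member, rose by 0.76 ± 0.19 in CLN3-deficient retinas and by 1.11 ± 0.19 in wild-type retinas (adjusted p = 0.0182 and 0.0026). *P4hb*, the β subunit of prolyl 4-hydroxylase and a general disulfide isomerase, fell by 0.78 ± 0.22 in CLN3-deficient and by 0.70 ± 0.22 in wild-type retinas (adjusted p = 0.0332 and 0.0374). The other higher genes in CLN3-deficient retinas were *Ppib* and *Crtap*, which act with prolyl 3-hydroxylase (1.16 and 1.27). The other members of the *P3h* family did not pass in CLN3-deficient retinas, with −0.675 for *P3h1*, −0.61 for *P3h4* and 0.40 for *P3h2*. *P4ha2*, a catalytic subunit of prolyl 4-hydroxylase, was the other higher gene in wild-type retinas (0.96). Of 13 measured genes of procollagen cleavage and crosslinking, *Bmp1*, the protease that cuts off the C-terminal propeptide, was the 1 that passed in each genotype. It was 8.77 and 8.36 after light with vehicle and 6.38 and 6.77 without light in CLN3-deficient retinas (1.99 ± 0.36, adjusted p = 0.00448), and 8.33 and 8.38 after light and 6.24 and 7.44 without light in wild-type retinas (1.51 ± 0.36, adjusted p = 0.0107).

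Laminins and other partners of type IV collagen in basement membranes had 2 of 15 measured members that passed as higher in CLN3-deficient retinas, beside 6.57% of all genes, while 7 passed as higher and 1 as lower in wild-type ones, beside 10.5% and 15.6%. *Agrn*, the heparan sulfate proteoglycan agrin, was 12.55 and 12.08 after light with vehicle and 9.42 and 9.47 without light in CLN3-deficient retinas (2.87 ± 0.26, adjusted p = 0.000763). It was 11.73 and 12.23 after light and 9.77 and 9.87 without light in wild-type retinas (2.16 ± 0.26, adjusted p = 0.000848). *Lamc3*, a laminin γ chain of the retina, rose in both (1.73 and 1.34). *Lama2* and *Lama5*, laminin α chains, passed in wild-type retinas (1.41 and 1.10), and *Lamb1* fell there by 0.95. The list's median was 0.38 in CLN3-deficient and 0.84 in wild-type retinas. Of 8 measured collagen receptors, *Gp6*, the platelet receptor, passed in CLN3-deficient retinas (0.69), and *Ddr2*, *Gp6*, *Mrc2* and *Itga2* passed in wild-type retinas (0.74 to 1.08).

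Of the marker lists, that of the ciliary body epithelium had more than 1 in 2 of its genes called higher after light in wild-type retinas, and no other list did. The list of choroidal melanocytes had 0 of 5 called there, but its light effect was positive for 5 of 5. Its median was larger, at 2.36 beside 1.765 for the ciliary body list. The mean of 5 genes of the ciliary body epithelium was 7.61 and 8.83 with minocycline, 7.19 and 7.46 with vehicle and 7.20 and 6.74 without light in CLN3-deficient retinas. In wild-type retinas it was 9.49 and 8.47 after light and 6.89 and 7.29 without light, and 3 of the 5 passed as higher there, among them *Optc*, a proteoglycan of the vitreous, with 4.80 ± 0.75 (limma, adjusted p = 0.00199). The mean of 8 fibroblast genes was 5.09 and 7.08 with minocycline, 5.63 and 5.14 with vehicle and 6.32 and 4.82 without light in CLN3-deficient retinas. It was 6.55 and 5.67 after light and 4.71 and 4.70 without light in wild-type retinas, where 2 of the 8 passed as higher. The first exposed wild-type array had the higher ciliary body, pigment cell and fibroblast means of its pair. Of the collagens called higher in wild-type retinas, it had the higher *Col3a1*, *Col9a3*, *Col15a1*, *Col18a1* and *Col28a1* of the pair. It had the lower *Col1a1*, *Col4a2*, *Col4a5*, *Col11a1* and *Col13a1*. Endothelial markers had 2 of 9 that passed as higher in CLN3-deficient retinas, beside 1 higher and 1 lower gene in wild-type ones. Müller glia and astrocyte markers had 1 of 5 lower in CLN3-deficient and 2 of 5 lower in wild-type retinas. Lens genes fell in wild-type retinas in 5 of 10, where their mean was 5.5 and 5.4 after light and 7.0 and 7.5 without light. In CLN3-deficient retinas that mean was 7.8 and 5.6 with minocycline, 7.2 and 5.9 with vehicle and 5.6 and 5.2 without light. It thus also differed between arrays of the same group, and the part of lens tissue taken along was not tested. In wild-type retinas 2 of 7 genes of sclera and cartilage-like matrix, *Acan* and *Fmod*, rose. In either light comparison 0 genes passed of the lists for pericytes and smooth muscle, skeletal muscle, pigment epithelium, melanocytes and cornea (limma, 10 over both comparisons at an unadjusted p under 0.05, of which 5 are muscle genes lower in CLN3-deficient retinas). The part of this tissue in the collagen values was not tested, and more cells of a type and more RNA per cell cannot be told apart in total retinal RNA.

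**Figure D5:**
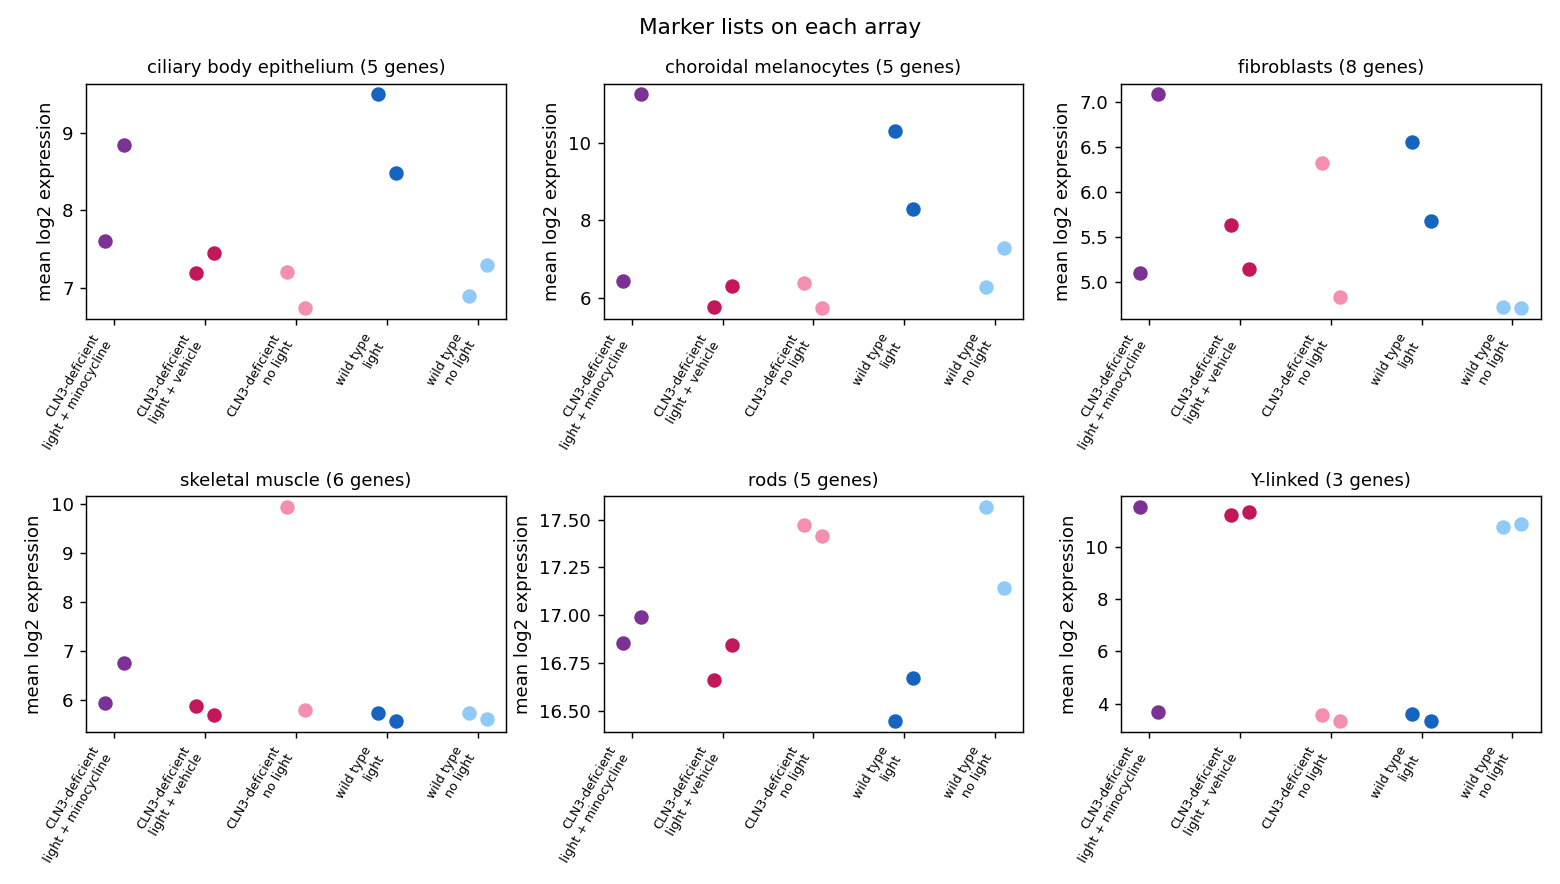
Mean log2 expression of 6 marker lists on each array (points, 2 per group), with a scale of its own in each panel that does not start at 0. The ciliary body list is at 9.49 and 8.47 in exposed wild-type retinas and at 6.89 and 7.29 in unexposed ones, and 1 array of unexposed CLN3-deficient retinas stands apart in the skeletal muscle list at 9.93.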

How the data were processed

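Total retinal RNA was hybridised to Affymetrix mouse arrays, 1 per animal. The authors deposited log2 expression values per transcript cluster, made with Affymetrix Expression Console, whose version and algorithm no source used here gives. Cluster names match the Clariom S design, whereas the methods name another Affymetrix array. Values ran from 2.70 to 19.5 and array medians from 7.14 to 7.25, and no detection call was used. Of 22206 clusters 19572 carry 1 gene symbol in the platform table, 0 carry several and 2634 are not listed. For 55 genes with several clusters that with the highest mean was kept, which left 19505 genes. Each collagen had 1 cluster.

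Groups came from the labels. Differences were tested with limma 3.58.1 in R 4.3.3 (lmFit and eBayes, a mean for each of 5 groups, 5 residual degrees of freedom, no filter), with Benjamini-Hochberg adjustment over all genes and a threshold of 0.05. A member that passed is called higher or lower. The fit was tested on simulated data first. Alternatives were median centring, quantile normalization, leaving out the dimmest 30% of genes, eBayes with trend and robust, only the groups compared, the unpaired t-test of the methods, their threshold, a covariate for Y-linked transcripts and leaving out each array. The members and all lists were chosen with earlier results of these data known. Array values were given for the type IV chains, for every collagen that passed and for the member with the highest mean of each class. From each pathway list up to 4 genes that passed were named by their smallest p in a light comparison. *Crtap*, *P3h1*, *P3h2*, *P3h4*, *Lamb1*, single marker genes and further collagens were named after their values were seen. Markers of rods, endothelium, pericytes, fibroblasts, sclera, muscle, pigment epithelium, melanocytes, ciliary body, cornea, lens, Müller glia and the Y chromosome were listed by hand. Array number limits the precision, with a median standard error of 0.24 (log2) for light effects. Promoter windows are from RefSeq (GRCm38.p6).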

Additional observations from a re-analysis of the deposited data

Results flagged for a closer look

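*Col3a1* was the 1 collagen whose light effect ran in opposite directions in the genotypes on every array. Both vehicle-treated CLN3-deficient arrays lay below both unexposed ones, and both exposed wild-type arrays lay above both unexposed ones. The difference of the light effects was −1.38 ± 0.32 on the log2 scale, with an unadjusted p of 0.00105 that did not pass over all genes (limma, adjusted p = 0.18). It ranged between −1.62 and −1.14 when any 1 of the 8 arrays was left out. Fibroblast marker means on the same arrays were 5.63 and 5.14 with vehicle and 6.32 and 4.82 without light in CLN3-deficient retinas, and 6.55 and 5.67 after light and 4.71 and 4.70 without light in wild-type retinas, and their part in this difference was not tested.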

How the results depend on the processing

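No light effect that passed (3 in CLN3-deficient and 11 in wild-type retinas) changed its sign under any alternative run, whereas 18 of the 39 that did not pass in CLN3-deficient and 11 of the 31 in wild-type retinas changed sign under at least 1. The 2 higher collagens of CLN3-deficient retinas became 0 with the t-test of the methods, 0 at their threshold, 0 with the Y-linked covariate and 1 to 1 on leaving out each array. The 1 lower became 2 with quantile normalization and 2 in the fit of only the groups compared, and 0 with the t-test and 0 with the covariate. The 10 higher collagens of wild-type retinas became 16 with median centring, which moved the median of all genes to 0.12, and 0 with the t-test, 0 at the methods' threshold and 1, *Col9a3*, with the covariate. The 9 others were then 0.58 to 1.61, with standard errors of 0.36 to 0.57 in place of 0.20 to 0.36, and in CLN3-deficient retinas *Col24a1* was 1.52 ± 0.42 and *Col9a3* 0.93 ± 0.35. The covariate rests on the 2 minocycline arrays, of which the second lacked the Y-linked signal and carried the pigment cell signal. Sex and that tissue therefore cannot be told apart in it. The higher collagens of wild-type retinas were 7 to 9 on leaving out each array, and 4 of them (*Col1a1*, *Col4a5*, *Col9a3* and *Col15a1*) passed whichever array was left out. *Col3a1* was 0.59 without the second unexposed and 0.52 without the first exposed wild-type array, *Col13a1* 0.73, 1.12 and 0.79 without the second unexposed, first exposed and second exposed array, and *Col28a1* 0.81 and 0.68 without the second unexposed and first exposed array, and none of these passed. The 1 lower collagen of wild-type retinas became 0 with quantile normalization, 0 with trend and robust, 0 with the t-test, 0 at the threshold of the methods and 2 with the covariate (*Col4a3* then at −4.22), and 0 to 1 on leaving out each array. Without adjustment that t-test gave 7 higher and 2 lower collagens with light in CLN3-deficient retinas, and 9 and 0 in wild-type ones. The matching counts over all genes were not taken, so these counts have no background to be read against. Minocycline called 0 to 1 higher on leaving out each array, and genotype after light called 1 lower, *Col18a1*, with trend and robust. The causes were not tested. No paired analysis was possible because the labels number animals without pairing them across groups.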
